A study of Mus musculus and Mus spretus with 18 samples.

Results

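A total of 107 genes differed between Mus spretus and Mus musculus brains by a large and lasting amount, out of 12346 Ensembl genes with values (0.867%). They were chosen by a rule on the deposited log2 values. The spretus mean minus the musculus mean, over 3 arrays each, had to be at least 0.6 at day 0, day 14 and day 56, or -0.6 or lower at all 3 ages. A difference of 0.6 on the log2 scale is 1.52-fold. In this set 44 genes were higher and 63 were lower in spretus. Another 2 genes that meet the rule, ENSMUSG00000032115 and ENSMUSG00000021693, were left out by it. The species differences thus chose the genes, and they are given below as a description, with no test.

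The samples were whole brains, without the olfactory bulb, of 18 male mice, each an individual with 1 array. The Mus spretus animals were of the strain SPRET/EiJ and the Mus musculus animals of the strain WSB/EiJ. Brains of each species were taken from newborns within the first postnatal day (day 0), pups (day 14) and young adults (day 56), with 3 males in each of the 6 groups. Each species is represented by 1 inbred strain, so species and strain cannot be told apart. In whole-tissue RNA, fewer cells of a type and less RNA per cell cannot be told apart either. No batch is given in the sources used here.

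Mus spretus and Mus musculus are separate species of mice, and SPRET/EiJ and WSB/EiJ are inbred strains derived from wild animals. A lasting difference in the level of a transcript between species is known to arise from sequence differences in or near the gene itself, which act in cis, or from changes in factors that act on it, in trans. On short-oligonucleotide arrays a base difference between a probe and its transcript lowers binding, and probes at such positions can be masked, that is, left out of the gene's value. The authors deposited a list of masked probes, and its counts per gene are given beside the expression values. The files and the reference table pair none of the 107 IDs with a gene name, so the genes are described by their values, with no more than 2 IDs in either direction as examples of a comparison.

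Examples were ranked by the smallest of the 3 differences, and the largest values were found among the genes lower in spretus. ENSMUSG00000023571 had log2 values of 6.41, 6.48 and 6.72 in spretus and 8.81, 8.81 and 8.77 in musculus at day 0. Arrays of day 14 gave 6.44, 6.33 and 6.41 in spretus and 9.28, 9.03 and 9.26 in musculus. Those of day 56 gave 6.33, 6.60 and 6.23 in spretus and 9.19, 8.88 and 8.89 in musculus. Its spretus arrays all lay below all musculus arrays, and its change with age, averaged over the species, passed the test in neither step (limma, adjusted p = 0.219 and 0.418). The differences were -2.26, -2.80 and -2.60 at days 0, 14 and 56, each with a standard error of 0.11 (limma).

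ENSMUSG00000044783, the second example lower in spretus, had group means of 6.56 ± 0.17 in spretus and 8.80 ± 0.23 in musculus at day 0 (log2, SD, n = 3). The means were 6.02 ± 0.20 in spretus and 7.77 ± 0.20 in musculus at day 14, and 6.20 ± 0.11 in spretus and 7.97 ± 0.11 in musculus at day 56. In either species the newborn level was the highest, and the species differed by -2.25, -1.75 and -1.77 over the ages (SE 0.13).

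Among the genes higher in spretus, ENSMUSG00000024767 had day 0 values of 9.23, 9.42 and 9.21 in spretus and 7.98, 8.03 and 7.91 in musculus. For pups the values were 9.61, 9.67 and 9.60 in spretus and 8.01, 8.14 and 8.45 in musculus. For young adults they were 9.48, 9.49 and 9.60 in spretus and 8.00, 7.48 and 7.63 in musculus. All 9 spretus arrays lay above all 9 musculus arrays, and the musculus arrays spread more at days 14 and 56 than at day 0. ENSMUSG00000020841 had mean log2 levels of 7.08 ± 0.09 in spretus and 5.53 ± 0.46 in musculus at day 0 (SD, n = 3). Its levels were 7.04 ± 0.28 in spretus and 5.81 ± 0.03 in musculus at day 14, and 7.54 ± 0.12 in spretus and 5.69 ± 0.22 in musculus at day 56. In musculus 1 newborn array, at 6.06, lay apart from the other two, at 5.25 and 5.27, and was still below all spretus arrays. The authors had masked 16 probes of ENSMUSG00000023571, 13 of ENSMUSG00000044783, 13 of ENSMUSG00000024767 and 11 of ENSMUSG00000020841.

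**Figure D1:**
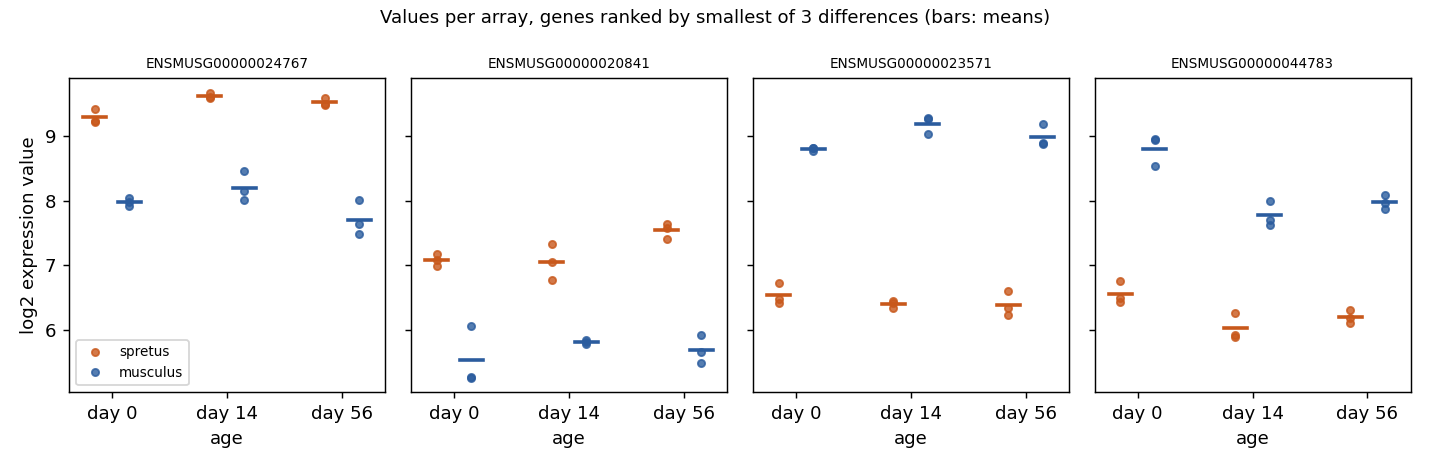
Log2 expression value (y axis) of each array at days 0, 14 and 56 (x axis) for the 2 genes in each direction whose smallest difference over the 3 ages was largest. Points are single arrays, bars are means of 3 arrays, and spretus is drawn to the left of musculus at each age; in all 4 panels the arrays of the species do not overlap at any age.

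Over the set, genes higher in spretus had a median difference of 0.83 in newborns (range 0.62 to 1.86), 0.87 in pups (0.61 to 1.57) and 0.93 in young adults (0.63 to 1.85). Genes lower in spretus had a median difference of -0.93 in newborns (range -2.26 to -0.62), -0.94 in pups (-2.80 to -0.60) and -0.90 in young adults (-2.60 to -0.62). Over all 12346 genes the median differences were 0.02, 0.03 and 0.01. The share of all genes that reached 0.6 was 1.78% in newborns, 1.53% in pups and 1.90% in young adults, and the share that reached -0.6 was 2.26%, 1.81% and 1.90%. A difference of at least 1 (2-fold) at all 3 ages was found in 7 of the 44 higher and 11 of the 63 lower genes, and one of at least 1.5 at all ages in 0 and 4.

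**Figure D2:**
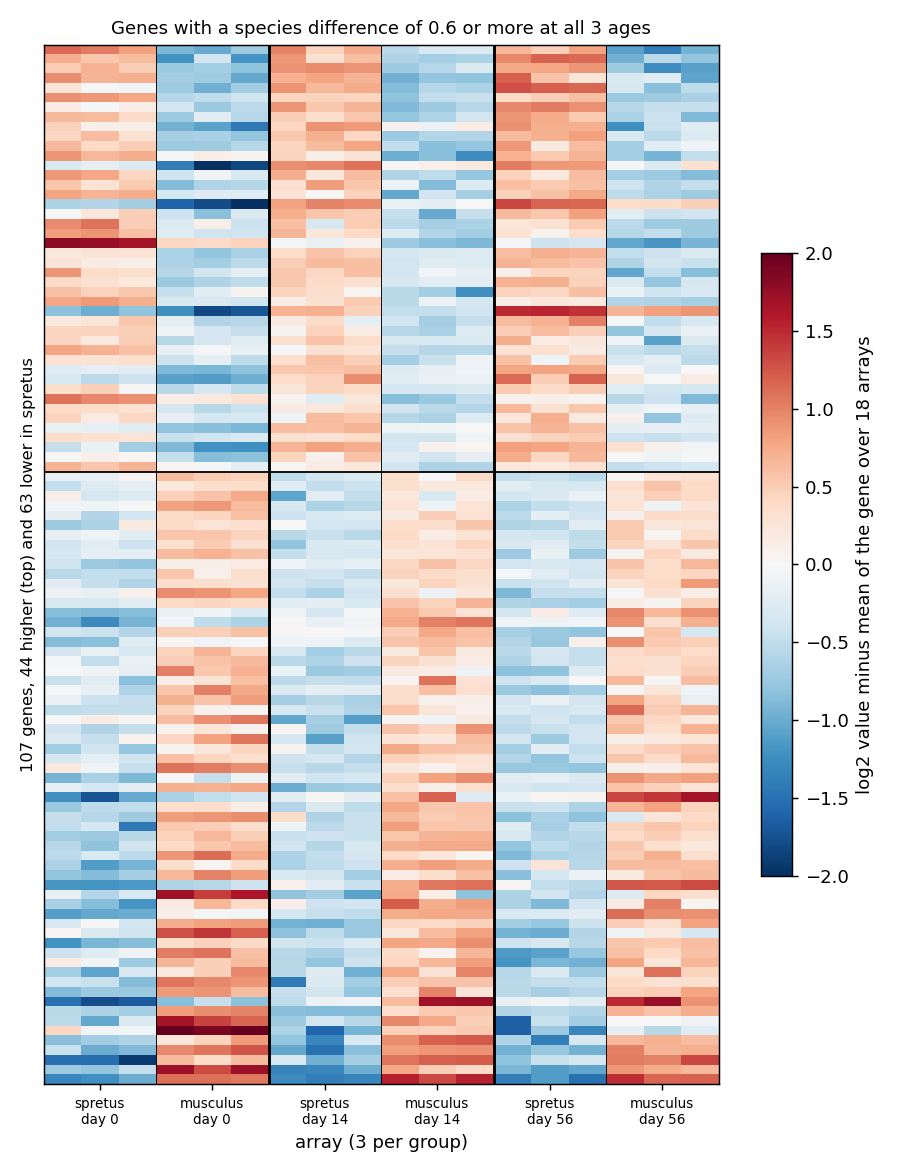
Log2 values of the 107 genes (rows, ordered by the mean species difference) on the 18 arrays (columns, 3 per group), each minus the mean of the gene over all arrays. Red is above and blue below that mean; the upper 44 rows are higher and the lower 63 rows lower in spretus at each age, and the rows with strong contrast between the ages are those that also changed with age.

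The limit of 0.6 has no natural gap around it. Just inside it, the smallest of the 3 differences was 0.62 and 0.61 for the last 2 higher genes and -0.60 and -0.61 for the last 2 lower genes. Just outside it, the smallest difference was a shade under 0.6 and 0.596 for the nearest 2 higher genes and -0.599 and -0.597 for the nearest 2 lower genes. With each of the 18 arrays left out in turn, 64 of the 107 genes met the rule every time, 28 of them higher and 36 lower in spretus. A further 17 genes missed it in 1 of these settings and 26 in at least 2.

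Within the set, the arrays of the species seldom overlapped. All 44 higher genes had every spretus array above every musculus array at each age, against 16.2%, 16.7% and 17.0% of all genes at days 0, 14 and 56. The spretus arrays lay below the musculus arrays in 63, 60 and 62 of the 63 lower genes, against 14.4%, 13.9% and 15.4% of all genes. Since the rule asks for large differences of means, nothing is read from these counts. For 66 of the 107 genes all 9 arrays of one species lay beyond all 9 of the other, against 2.11% of all genes, a count that the rule also favours.

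For 30 of the 107 genes the differences at the 3 ages lay within 0.2 of each other, and for 81 within 0.5. The median spread between the largest and the smallest of the 3 was 0.31 in the set and 0.24 over all genes. The standard error of a single difference had a median of 0.14 in the set and 0.11 over all genes, so both were somewhat larger in the set. The newborn difference was the largest in size in 42 genes, the pup difference in 23 and the young adult difference in 42. From day 0 to day 56 it grew by more than 0.3 in 18 genes and shrank by more than 0.3 in 23, with 6 and 7 of these among the higher and 12 and 16 among the lower genes. These are 16.8% and 21.5% of the set, against 5.55% and 5.35% of all genes. The rule chose on these differences, so nothing is read from the shares or from the larger spread and standard error.

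The following genes, with the larger shifts of the difference between days 0 and 56, are given as a description. ENSMUSG00000022861 had a larger difference at day 56. Its spretus arrays read 4.99, 4.98 and 5.02 in newborns and 6.18, 5.68 and 5.63 in young adults. Its musculus arrays read 5.56, 5.60 and 5.75 in newborns and 7.41, 7.39 and 7.47 in young adults. Its level was greater at day 56 in both species, and the size of the difference was greater by 0.96 ± 0.20 (SE). The newborn spretus levels are close to 4.74, the value below which 25% of all values lie, so this growth may not be exact. Without the highest newborn musculus array the newborn difference fell short of 0.6 in size, and ENSMUSG00000022861 no longer met the rule. ENSMUSG00000047714 had means of 7.07 ± 0.18, 7.77 ± 0.12 and 8.21 ± 0.07 in spretus at days 0, 14 and 56 and of 6.21 ± 0.15, 6.31 ± 0.16 and 6.45 ± 0.26 in musculus (SD, n = 3). Its level moved with age mostly in spretus, and the difference was 0.85, 1.45 and 1.76 at the 3 ages.

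ENSMUSG00000057098 had a smaller difference at day 56. Its spretus arrays read 5.35, 4.91 and 5.19 in newborns, 4.69, 4.80 and 4.43 in pups and 4.88, 5.12 and 4.91 in young adults. Its musculus arrays read 7.19, 6.88 and 7.11 in newborns, 6.26, 5.63 and 4.69 in pups and 5.23, 5.91 and 5.83 in young adults. The species overlapped at day 14, where 1 musculus array lay within the range of the spretus arrays, and the difference was -1.91, -0.89 and -0.69 at the 3 ages (SE 0.27). Without the highest musculus array of day 14, or without that of day 56, ENSMUSG00000057098 no longer met the rule. Its spretus levels are close to 4.74, the value below which 25% of all values of the table lie, so the sizes of these differences may not be exact. ENSMUSG00000006517 had means of 6.21 ± 0.37, 6.28 ± 0.16 and 5.89 ± 0.62 in spretus and of 8.22 ± 0.25, 7.55 ± 0.24 and 6.79 ± 0.03 in musculus at days 0, 14 and 56 (SD, n = 3). Here the musculus level was lower at each later age while the spretus level moved less. These changes of the difference share their values with the rule and were not tested.

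**Figure D3:**
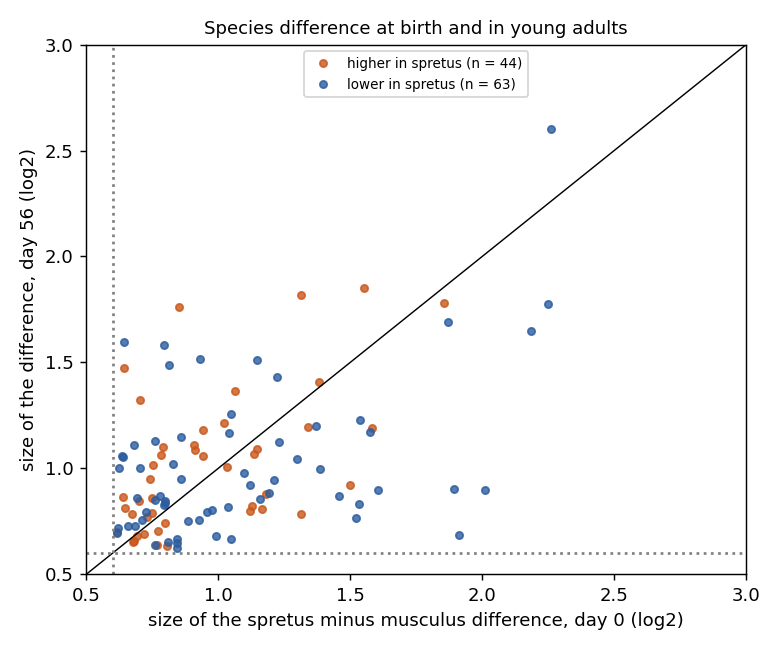
Size of the species difference (log2, without its sign) of each gene at day 0 (x axis) and day 56 (y axis), with genes higher and lower in spretus in different colours. The diagonal marks equal sizes and the dotted lines the limit of 0.6; 54 of the 107 genes had the larger difference at day 56.

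Most of the genes were found at middle levels of expression, and few in the dimmest part of the table. The mean over all 18 arrays had a median of 7.08 in the set (range 4.01 to 11.18), against 6.56 over all genes. All genes were ordered by mean level and divided into 4 classes of equal size, from class 1, the dimmest, to class 4, the brightest. The classes held 2, 37, 42 and 26 genes of the set. In 97 of the 107 genes all 6 group means lay above 4.74, and in 10 at least 1 group mean lay at or below it. A single gene, higher in spretus, had musculus means at or below 4.74 at all 3 ages and spretus means above it at all 3. The lower genes held 0 genes of the opposite kind, with spretus at or below this value and musculus above it at every age. One further gene, with a mean level of 4.01, had all 6 group means at or below it. 

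The change with age, averaged over the species, does not depend on the species differences that chose the genes and was tested with limma, with p-values adjusted over all 12346 genes. From day 0 to day 14, 33 of the 107 genes rose and 35 fell (adjusted p under 0.05), which is 30.8% and 32.7% of the set. Over all genes 24.0% rose and 25.9% fell, and among the 9259 genes outside class 1 of mean level 29.2% rose and 32.5% fell. The shares in the set are near those of the genes outside class 1, though levels were not matched further. Of the higher genes 15 rose and 12 fell, and of the lower genes 18 rose and 23 fell. The median size of the change was 0.30 in the set and 0.20 over all genes. The latter includes the dim genes of class 1, so the sizes are not compared at like levels.

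The members with the largest rises included ENSMUSG00000000531, lower in spretus, and ENSMUSG00000078161, higher in spretus. ENSMUSG00000000531 had means of 6.52 ± 0.15, 7.93 ± 0.24 and 8.02 ± 0.07 in spretus and of 7.45 ± 0.21, 9.50 ± 0.62 and 9.54 ± 0.43 in musculus at days 0, 14 and 56 (log2, SD, n = 3). It rose by 1.73 ± 0.17 averaged over the species from day 0 to day 14 (SE; limma, adjusted p = 1.05e-07). ENSMUSG00000078161 had means of 6.49 ± 0.06, 8.04 ± 0.10 and 8.34 ± 0.11 in spretus and of 5.32 ± 0.20, 7.01 ± 0.09 and 7.53 ± 0.07 in musculus. It rose by 1.62 ± 0.07 in the first step (limma, adjusted p = 1.6e-12) and by 0.41 ± 0.07 in the second (limma, adjusted p = 0.000446). Both genes kept the species apart at every age while the level climbed in each of them.

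Among the falling genes, ENSMUSG00000040649, higher in spretus, had day 0 arrays at 9.24, 9.21 and 9.11 in spretus and at 7.87, 7.84 and 7.91 in musculus. Its day 14 arrays were at 7.43, 7.30 and 7.53 in spretus and at 6.74, 6.62 and 6.55 in musculus. The newborn musculus arrays thus lay above the day 14 spretus arrays, although spretus was higher within each age. The change averaged over the species was -1.50 ± 0.07 (SE; limma, adjusted p = 5.77e-12). ENSMUSG00000027996, lower in spretus, had means of 6.17 ± 0.27, 5.02 ± 0.49 and 4.84 ± 0.46 in spretus and of 8.06 ± 0.11, 6.56 ± 0.04 and 5.74 ± 0.20 in musculus at days 0, 14 and 56. Its average change was -1.33 ± 0.16 from day 0 to day 14 (limma, adjusted p = 9.61e-07), and its later spretus levels are close to the dim value of 4.74.

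From day 14 to day 56 fewer genes of the set changed. Of the 107 genes 14 rose and 12 fell (13.1% and 11.2%), against 9.43% and 10.1% of all genes and 11.9% and 12.8% of those outside class 1. The rises were 9 of the 44 higher and 5 of the 63 lower genes, and the falls were 4 and 8. A rise of at least 0.5 was called in 2 genes and a fall of at least 0.5 in 2, against 1.27% and 1.68% of all genes. Over both steps 29 genes (27.1%) were called in neither, against 45.1% of all genes and 32.3% of those outside class 1. Of the rest, 25 rose and then were not called (23.4%, against 16.4% of all genes and 19.6% outside class 1). Another 27 fell and then were not called (25.2%, against 19.0% and 23.4%). A rise in both steps was called in 6 genes (5.61%, against 4.71% and 6.13%) and a fall in both in 3 (2.80%, against 4.82% and 6.35%).

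ENSMUSG00000061859, higher in spretus, climbed in both steps. Its means were 6.76 ± 0.09, 8.24 ± 0.14 and 9.11 ± 0.04 in spretus and 6.04 ± 0.31, 7.17 ± 0.06 and 8.42 ± 0.10 in musculus at days 0, 14 and 56 (log2, SD, n = 3). It rose by 1.31 ± 0.09 and then by 1.06 ± 0.09 (SE; limma, adjusted p = 4.82e-10 and 2.27e-07). ENSMUSG00000028527, lower in spretus, had day 14 arrays at 7.56, 7.83 and 7.61 in spretus and at 8.38, 8.98 and 7.54 in musculus, and day 56 arrays at 7.67, 7.84 and 7.86 in spretus and at 9.13, 9.23 and 9.47 in musculus. Its difference at day 14 was only a little above 0.6 in size, so single arrays decided whether it met the rule. For example, the gene no longer met it without replicate 2 of musculus or without replicate 1 of spretus at that age. Replicate 3 of musculus at day 14 lay below all 3 spretus arrays of that age. Its rise of 0.55 ± 0.17 passed the threshold narrowly (limma, adjusted p = 0.0333) and was 0.36 without that array (limma, adjusted p = 0.058). The call was lost in 7 of the 18 settings with 1 array left out, which were those without replicate 3 of musculus at day 14, replicates 2 and 3 of musculus at day 56, replicates 1 and 3 of spretus at day 14 and replicates 2 and 3 of spretus at day 56.

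ENSMUSG00000033658, lower in spretus, had means of 5.79 ± 0.11, 6.24 ± 0.03 and 5.52 ± 0.06 in spretus and of 6.77 ± 0.07, 6.88 ± 0.14 and 6.32 ± 0.46 in musculus. It fell by 0.64 ± 0.11 after day 14 (SE; limma, adjusted p = 0.000446). ENSMUSG00000006517, whose values are given above, fell by 0.57 ± 0.17 (limma, adjusted p = 0.0225). This call was lost without replicate 1 of musculus or replicate 2 of spretus at day 14 (limma, adjusted p = 0.0588 and 0.0541). Without replicate 1 of spretus at day 56 its change was -0.396 (limma, adjusted p = 0.0415). The gene then no longer met the rule at day 56. The direction of the change with age was opposite in the species for 19 of the 107 genes from day 0 to day 14 (17.8%) and for 31 from day 14 to day 56 (29.0%), against 23.9% and 36.8% of all genes. This includes changes too small to be called.

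**Figure D4:**
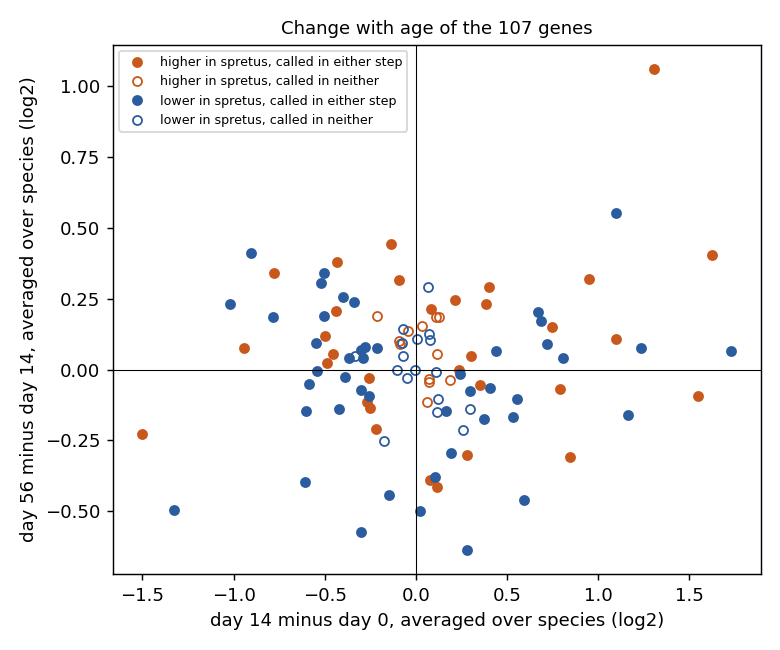
Change from day 0 to day 14 (x axis) and from day 14 to day 56 (y axis), averaged over the species (log2), for each of the 107 genes; filled points were called in at least 1 step (limma, adjusted p under 0.05) and open points in neither. The first step spans -1.50 to 1.73 and the second -0.64 to 1.06, and genes higher and lower in spretus are found on all sides of 0.

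For most of the set the species difference was larger than the course with age. In 91 of the 107 genes (85.0%) the mean difference between the species was larger than the range of the 3 age means averaged over the species, against 20.5% of all genes. The rule itself sets a lower limit on the species difference, so this count is a description. Among the higher genes this held for 35 of 44 and among the lower genes for 56 of 63.

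Genes of the set carried more masked probes than other genes. The median was 5 masked probes per gene (4 in the higher and 6 in the lower genes, range 0 to 28 in either), against 2 over all genes. At least 7 probes were masked in 47 of the 107 genes (43.9%), 16 of them higher and 31 lower in spretus, against 12.2% of all genes. No probe was masked in 6 genes (5.61%), 3 in each direction, against 26.1% of all genes. The share of genes that met the rule was 0.186% of the 3221 genes with no masked probe, 0.402% of the 4730 with 1 or 2, 1.21% of the 2894 with 3 to 6 and 3.13% of the 1501 with 7 or more.

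Masked probes also go with the level of expression: the median level was 4.75 in all genes with no masked probe and 8.06 in those with 7 or more. Within class 2 of mean level the share that met the rule was 0.55% of genes with no masked probe and 6.60% of those with 7 or more. It was 0% and 3.68% in class 3 and 0.303% and 1.78% in class 4. In class 1, 0 of 1614 genes with no masked probe and 0 of 32 with 7 or more met it. The counts behind these shares are small. In classes 2, 3 and 4 they are 13, 22 and 12 genes with 7 or more masked probes and 5, 0 and 1 with none. In classes 2 to 4, genes with 7 or more masked probes met the rule more often than those with none in the same class. The classes match the level only in part: in class 2 the median level was 5.39 with no masked probe and 5.93 with 7 or more. The part of masking or of base differences between the species in the expression values was not tested.

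The size of the mean difference over the ages, which the rule used, did not follow the number of masked probes steadily. Its median was 0.83 in the 6 genes with no masked probe, 0.97 in the 19 with 1 or 2, 0.84 in the 35 with 3 to 6 and 1.09 in the 47 with 7 or more. A size of at least 1 was found in 0, 8, 11 and 26 of them. The range was 0.67 to 0.88 with no masked probe and 0.64 to 2.55 with 7 or more. Of the 18 genes with at least a 2-fold difference at all 3 ages, 12 had 7 or more masked probes and the other 6 had 3 to 6. Among the 6 genes without a masked probe, 5 were dim to middling, with mean levels of 5.17 to 6.34, and the brightest was at 10.39. This last gene, higher in spretus, differed by 0.68, 0.67 and 0.66 at the 3 ages, the smallest spread over the ages in the set (0.026).

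**Figure D5:**
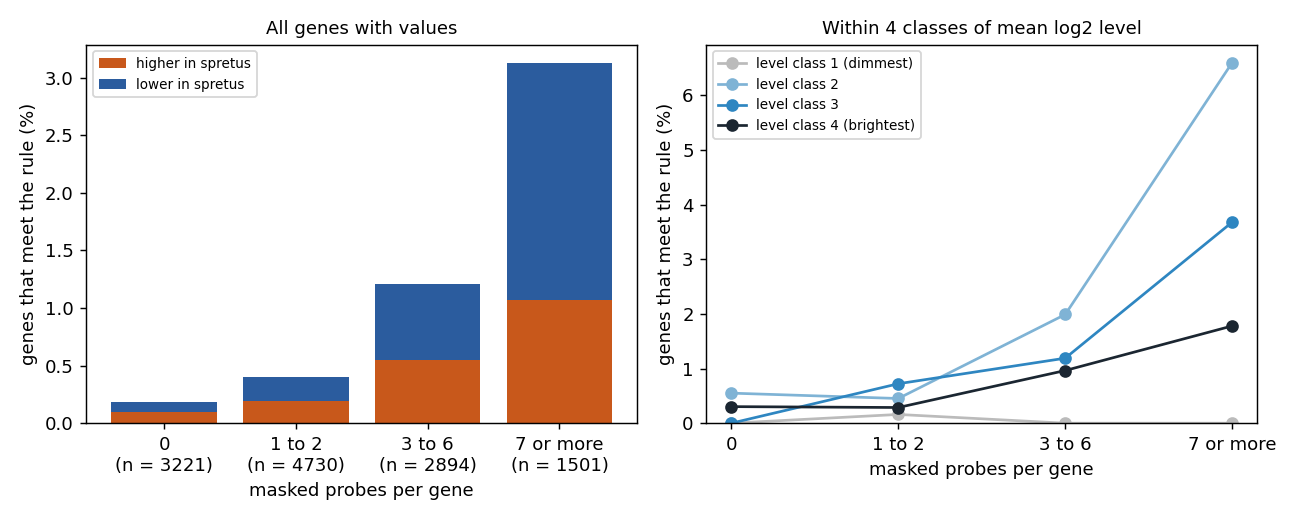
Percent of genes that met the rule (y axis) by the number of masked probes per gene (x axis), for all genes, with genes higher and lower in spretus stacked (left), and within 4 classes of the mean log2 level (right). The share is 0.186% without masked probes and 3.13% with 7 or more, and it is larger with 7 or more than with none in classes 2, 3 and 4.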

How the data were processed

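Per the labels' protocols, biotin-labelled cRNA from total brain RNA was hybridised to 1-colour Affymetrix mouse arrays. The authors deposited log2 values for 12346 Ensembl genes on each of 18 arrays. Base 2 follows from the values (2.89 to 13.82; 2 to the power of the top value is 14485, within a scanner's range). Array medians of 6.52 to 6.56 show that the table was already normalized, by a method that the sources used here do not give. The number of arrays limits the precision. A second deposited table lists 46864 masked probes, whose entries were counted per gene. Why they were masked and how many probes were kept is not stated.

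The rule was applied to means of 3 arrays. For tests and standard errors, limma 3.58.1 (R 4.3.3; lmFit, contrasts.fit, eBayes) was fitted with 1 mean for each of the 6 groups to all 18 arrays (12 residual degrees of freedom, 17.1 after moderation), two-sided, with Benjamini-Hochberg adjustment over all genes at 0.05. The age steps (day 14 over day 0, day 56 over day 14) were averaged over the species, which in this balanced design makes them orthogonal to the species differences. The procedure was tested on simulated data. Groups came from the sample titles.

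None of the 49997 genes of the reference table carries an Ensembl ID, so 0 of 12346 IDs were matched. The 12 marker lists and the symbol families of the naming rule could therefore not be used, and no sequence is shown. The naming rule (largest changes) was applied to IDs and shortened to 2 per direction and comparison. The members and lists were chosen with earlier results of these data known. Alternatives were other normalizations, filters, thresholds, a replicate block and single arrays left out.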

Additional observations from a re-analysis of the deposited data

How the results depend on the processing

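Normalization changed the set little: 43 higher and 68 lower genes met the rule after quantile normalization, and 48 and 62 after centring arrays on their medians. The threshold decided its size, with 82 higher and 99 lower genes at 0.5, 16 and 25 at 0.8, and 7 and 11 at 1. With genes of 7 or more masked probes left out, 28 higher and 32 lower genes remained by construction. Of these, 16 rose and 19 fell from day 0 to day 14, and 5 rose and 7 fell from day 14 to day 56. When changes were tested against 0.2 in place of 0 (limma's treat), 21 genes rose and 19 fell in the first step and 1 rose and 1 fell in the second. With 1 array left out, the higher genes numbered 42 to 49 and the lower genes 59 to 66. Rises in the first step then numbered 28 to 34 and falls 30 to 36, and in the second step 11 to 15 and 9 to 12. No sign of a pairing by replicate number was found, though a pairing without a shift across the array would not be seen. Deviations from group means of same-numbered arrays correlated with a median r of 0.0035 over 45 pairs, 4 of them above 0.1. Arrays of other numbers gave a median r of 0.0014 over 90 pairs, 8 of them above 0.1. With the replicate number as a block, 32 genes rose and 35 fell in the first step and 16 rose and 13 fell in the second. Shares over all genes were not computed for these alternatives, so none of these counts is read as particular to the set. The rise of ENSMUSG00000028527 after day 14 was not called in 8 of 25 alternatives (adjusted p 0.0022 to 0.427 by limma) and the fall of ENSMUSG00000006517 in 3 of 25 (adjusted p 0.007 to 0.328 by limma). The other 6 age changes named for their size kept their direction and call in all alternatives that tested them. Counts of cell type markers between the species were not run, since no ID could be matched to a symbol. Differences of genes near 4.74 are limited by signal over background.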

Other observations

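Replicate arrays of the 107 genes spread somewhat more than those of other genes. The within-group SD, pooled over the 6 groups, had a median of 0.181 in the set (0.169 in the higher and 0.193 in the lower genes) and of 0.141 over all genes on the log2 scale. A rule on means of 3 arrays can favour genes with a larger spread, and levels were not matched, so nothing is read from this. The set holds 4 genes, all lower in spretus, whose species overlapped at 1 of the 3 ages.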
